A study of Mus musculus with 21 samples.

Results

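The genes described here are 9 whose products hold back signalling by transforming growth factor beta (TGF-b) inside the cell: the inhibitory SMAD genes Smad6 and Smad7, the corepressor genes Ski, Skil and Tgif1, the ubiquitin ligase genes Smurf1 and Smurf2, and the membrane protein genes Pmepa1 and Bambi. They were taken as a list of names, chosen with earlier results of these data known, and matched to the gene symbols of the array annotation. Shares of the list set beside those of all genes are therefore a description. Where a gene had several probe sets, the brightest by mean level in its table represented it. All 9 were among the 18193 genes measured in NMuMG cells, and 7 were among the 12393 genes measured in NM18 cells; Smurf1 and Smurf2 had no probe set annotated to that symbol alone in the NM18 table. The study used 21 Affymetrix mouse arrays in 7 groups of 3. NMuMG cells, an epithelial line from mouse mammary gland, received medium with 200 µM 4-thiouridine (4sU) alone or with 5 ng/ml TGF-b1 for 2 h. 4sU is built into RNA made while it is present, so that RNA enriched for it (newly made RNA) and total RNA were hybridised separately, which gave a control and a TGF-b1 group for each kind of RNA. All 4 NMuMG groups carried 4sU, and all were amplified in a two-cycle protocol before hybridisation. NM18 cells, the other cells of the study, all received 25 nM siRNA for 48 h, either ns siRNA, the control, or FoxQ1 siRNA. In 1 group of each siRNA, 5 ng/ml TGF-b1 was added after 8 h for the remaining 40 h. The third group had ns siRNA without TGF-b1, and no group had FoxQ1 siRNA without TGF-b1. Array 1 of ns siRNA without TGF-b1 carries a free-text remark in its label about TGF-b1, and was grouped by its title.

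TGF-b binds a pair of receptor kinases that phosphorylate the receptor SMAD proteins, which join SMAD4, enter the nucleus and switch genes on or off. The inhibitory SMADs compete for the receptors and bring SMURF ubiquitin ligases to them, SKI and its relative SnoN (the product of Skil) sit on SMAD complexes and recruit corepressors, and TGIF1 does so as a homeodomain protein. PMEPA1 holds receptor SMADs away from the receptor, and BAMBI resembles a type I receptor without its kinase. Several of these genes are themselves known targets of SMADs, which makes them a negative feedback loop.

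All values are on a log2 scale, so that 1 unit is a doubling; a value after ± is the SD over 3 arrays beside a level and the standard error (SE) beside a change. Changes were tested with limma, and a gene was called at a Benjamini-Hochberg adjusted p under 0.05 over all genes of its table. Whether groups overlapped is given as a description only, and the share of all genes without overlap was not counted. Arrays of a table correlated at 0.928 to 0.997 (NMuMG) and 0.961 to 0.998 (NM18) over all genes, and no 2 arrays held identical values. Of 9 epithelial markers, 6 lay above the median gene in NMuMG and 5 in NM18 cells, against 0 of 6 leukocyte and 0 of 4 endothelial markers in either. Of 8 fibroblast and 5 basal or myoepithelial markers, 1 each lay above it in NMuMG and 0 in NM18 cells. The siRNA target Foxq1 stood at 9.15 ± 0.16 in ns siRNA with TGF-b1 and at 7.88 ± 0.27 in FoxQ1 siRNA with TGF-b1, and fell by 1.27 ± 0.16 (adjusted p = 0.000291). In ns siRNA without TGF-b1 it stood at 8.26 ± 0.31. FoxQ1 siRNA with TGF-b1 differed from that group by -0.39 ± 0.16, which was not called (adjusted p = 0.0909). In these bulk samples, fewer cells of a type and less RNA per cell cannot be told apart, and 3 arrays a group limit the precision.

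Promoter sequences were available for 5 of the 9 genes in a RefSeq table on GRCm38.p6 that runs from 250 bases before to 50 bases after each transcript start. The promoters of Smad7, Skil, Pmepa1 and Bambi were not available, so they were not searched. Shown are the promoters of Ski, Smurf1 and Smurf2, which rose in newly made RNA, and that of Smad6, which holds the rare palindromic SMAD site. Capitals mark matches to 3 motifs that SMAD proteins are known to bind, searched on both strands: the palindrome GTCTAGAC, its shorter relative CAGAC, which reads as GTCTG on the opposite strand, and the GC-rich GGCGCC. The motifs do not overlap. Each is printed 5′ to 3′ along the transcribed strand, which is the minus strand in all 4.
Ski, chr4:155222486-155222785: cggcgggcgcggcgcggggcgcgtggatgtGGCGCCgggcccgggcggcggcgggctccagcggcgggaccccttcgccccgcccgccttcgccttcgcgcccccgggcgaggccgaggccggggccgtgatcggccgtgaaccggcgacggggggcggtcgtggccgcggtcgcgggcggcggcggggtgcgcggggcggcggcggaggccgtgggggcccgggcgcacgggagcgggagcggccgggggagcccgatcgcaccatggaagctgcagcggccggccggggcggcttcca
Smurf1, chr5:144965781-144966080: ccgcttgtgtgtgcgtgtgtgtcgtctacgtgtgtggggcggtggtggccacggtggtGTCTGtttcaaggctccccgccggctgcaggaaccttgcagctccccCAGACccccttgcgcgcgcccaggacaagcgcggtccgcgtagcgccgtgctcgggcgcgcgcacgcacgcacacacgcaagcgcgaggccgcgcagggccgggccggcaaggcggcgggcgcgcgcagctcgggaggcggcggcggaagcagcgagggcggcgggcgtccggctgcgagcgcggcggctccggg
Smurf2, chr11:106920666-106920965: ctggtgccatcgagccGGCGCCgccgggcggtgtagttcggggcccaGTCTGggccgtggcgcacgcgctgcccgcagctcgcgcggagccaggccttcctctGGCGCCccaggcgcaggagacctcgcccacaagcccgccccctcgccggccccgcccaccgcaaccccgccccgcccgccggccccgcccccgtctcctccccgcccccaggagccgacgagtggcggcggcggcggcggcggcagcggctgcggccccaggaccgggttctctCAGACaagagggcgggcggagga
Smad6, chr9:64022010-64022309: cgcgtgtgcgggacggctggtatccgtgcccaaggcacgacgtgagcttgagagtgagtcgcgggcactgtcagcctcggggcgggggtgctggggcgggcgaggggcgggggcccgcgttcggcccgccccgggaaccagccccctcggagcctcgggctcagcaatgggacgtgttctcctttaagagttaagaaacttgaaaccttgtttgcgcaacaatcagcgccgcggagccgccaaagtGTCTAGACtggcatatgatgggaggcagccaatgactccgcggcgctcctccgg

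Positions count from the transcript start, with -1 just before it. The Ski window held 1 GGCGCC, at -220, and no CAGAC. The Smurf1 window held GTCTG at -192 and CAGAC at -145. The Smurf2 window held GGCGCC at -234 and at -147, GTCTG at -203 and CAGAC at 28 after the start. The Smad6 window held GTCTAGAC from -4, across the start, and neither of the other motifs. Of the 5 windows of Tgif1, none held GTCTAGAC or GGCGCC and 3 held CAGAC or GTCTG. Over all 32851 windows of 300 bases in the table, 0.213% held GTCTAGAC, 49.6% held CAGAC or GTCTG and 11.9% held GGCGCC. The G and C content was 85.3% for Ski, 80.3% for Smurf2, 76.3% for Smurf1 and 66.3% for Smad6, against a median of 52.7%. A match is a description of letters and not a bound site.

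The first comparison asked which of these genes NMuMG cells transcribed more within 2 h of TGF-b1, as seen in RNA made during those hours. Pmepa1, Ski, Smad7, Skil, Smurf1 and Smurf2 rose, by 0.73 to 1.14 log2 units, and Tgif1, Bambi and Smad6 did not pass the test. That is 6 of 9 genes called higher and 0 called lower, where 3.35% of all genes were called higher and 2.79% lower. The median change was 0.75 over the 9 genes and -0.01 over all genes.

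Among the inhibitory SMADs, Smad7, which blocks receptor SMADs at the TGF-b receptor, stood at 10.51, 10.61 and 10.60 in the control arrays of newly made RNA and at 11.60, 11.69 and 11.41 with TGF-b1. The groups did not overlap, and each TGF-b1 array lay at least 0.81 above the control array of its number. The rise was 0.99 ± 0.11 (1.99-fold, adjusted p = 4.06e-05). A second Smad7 probe set rose by 0.79 ± 0.13. Smad6, its relative with a preference for BMP receptors, stood at 7.71, 7.68 and 7.95 without and at 8.20, 8.04 and 8.13 with TGF-b1, groups that did not overlap. Its difference of 0.34 ± 0.13 did not pass the test (adjusted p = 0.150), and passed with quantile normalization (0.0382).

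Of the corepressors, Ski was measured at 9.48, 9.17 and 9.88 in control and at 10.83, 10.57 and 10.31 in TGF-b1 newly made RNA. The pairs of same-numbered arrays differed by 1.35, 1.40 and 0.44, so the third pair moved less, and the rise was 1.06 ± 0.17 (2.09-fold, adjusted p = 0.000926). Skil, which encodes SnoN, went from 12.86, 12.49 and 12.57 to 13.47, 13.51 and 13.24, a rise of 0.76 ± 0.12 (1.70-fold, adjusted p = 0.000754) between groups that did not overlap. The dimmer probe sets of both genes rose more, by 1.30 ± 0.11 for Ski and 1.16 ± 0.15 for Skil. Tgif1 varied more between control arrays than any other of the 9 genes in this RNA, with 8.45, 9.05 and 9.74, and its TGF-b1 values of 9.24, 9.52 and 9.88 overlapped them. Its difference of 0.47 ± 0.25 did not pass the test (adjusted p = 0.410), and it rested on single arrays: it was 0.80 and called without control array 3 (adjusted p = 0.0388) and 0.15 without control array 1 (0.765). The same-numbered Tgif1 arrays differed by 0.78, 0.47 and 0.14, and a fit with a block of replicate numbers for newly made and for total RNA apart, an alternative added after the data were seen, called it (adjusted p = 0.00893).

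Both ubiquitin ligase genes rose. Smurf1 went from 8.64, 8.75 and 9.08 to 9.61, 9.60 and 9.51, without overlap, by 0.75 ± 0.14 (1.68-fold, adjusted p = 0.00222). Its dimmer probe set gave 0.33 ± 0.12 and was not called (adjusted p = 0.154 over all probe sets). Smurf2 went from 10.17, 10.68 and 10.92 to 10.95, 11.55 and 11.47, where the highest control array lay just under the lowest TGF-b1 array, and rose by 0.73 ± 0.18 (1.66-fold, adjusted p = 0.0205). Its other probe sets rose by 0.62 ± 0.12 and 0.57 ± 0.12. The Smurf2 call was lost without control array 1 (adjusted p = 0.0626) or 2 (0.0508) or TGF-b1 array 2 (0.104) or 3 (0.10) of newly made RNA, and in a limma fit of the newly made arrays alone (0.125). Whether the motif letters printed for Smurf1 and Smurf2 have a part in these rises was not tested.

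Of the membrane proteins, Pmepa1 had the largest rise of the 9 genes. It stood at 11.04, 11.05 and 10.51 in control and at 12.16, 12.02 and 11.83 in TGF-b1 newly made RNA, without overlap, and rose by 1.14 ± 0.15 (2.20-fold, adjusted p = 0.000153). Its other probe sets rose by 1.34 ± 0.22 and 1.43 ± 0.14. Bambi was dim, at 5.79, 5.49 and 5.27 in control and 6.27, 5.87 and 5.72 with TGF-b1, near the array medians of 5.72 to 5.96. Its groups overlapped, while the same-numbered arrays differed by 0.48, 0.38 and 0.45. The difference of 0.44 ± 0.15 was not called (adjusted p = 0.124), and was called with the replicate block, which takes out the differences between replicate numbers (adjusted p = 0.0378). Without single arrays it ranged from 0.28 without TGF-b1 array 1 (adjusted p = 0.455) to 0.57 without control array 1, where it was called (0.0301). The block for each kind of RNA apart called it as well (0.00602).

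**Figure D1:**
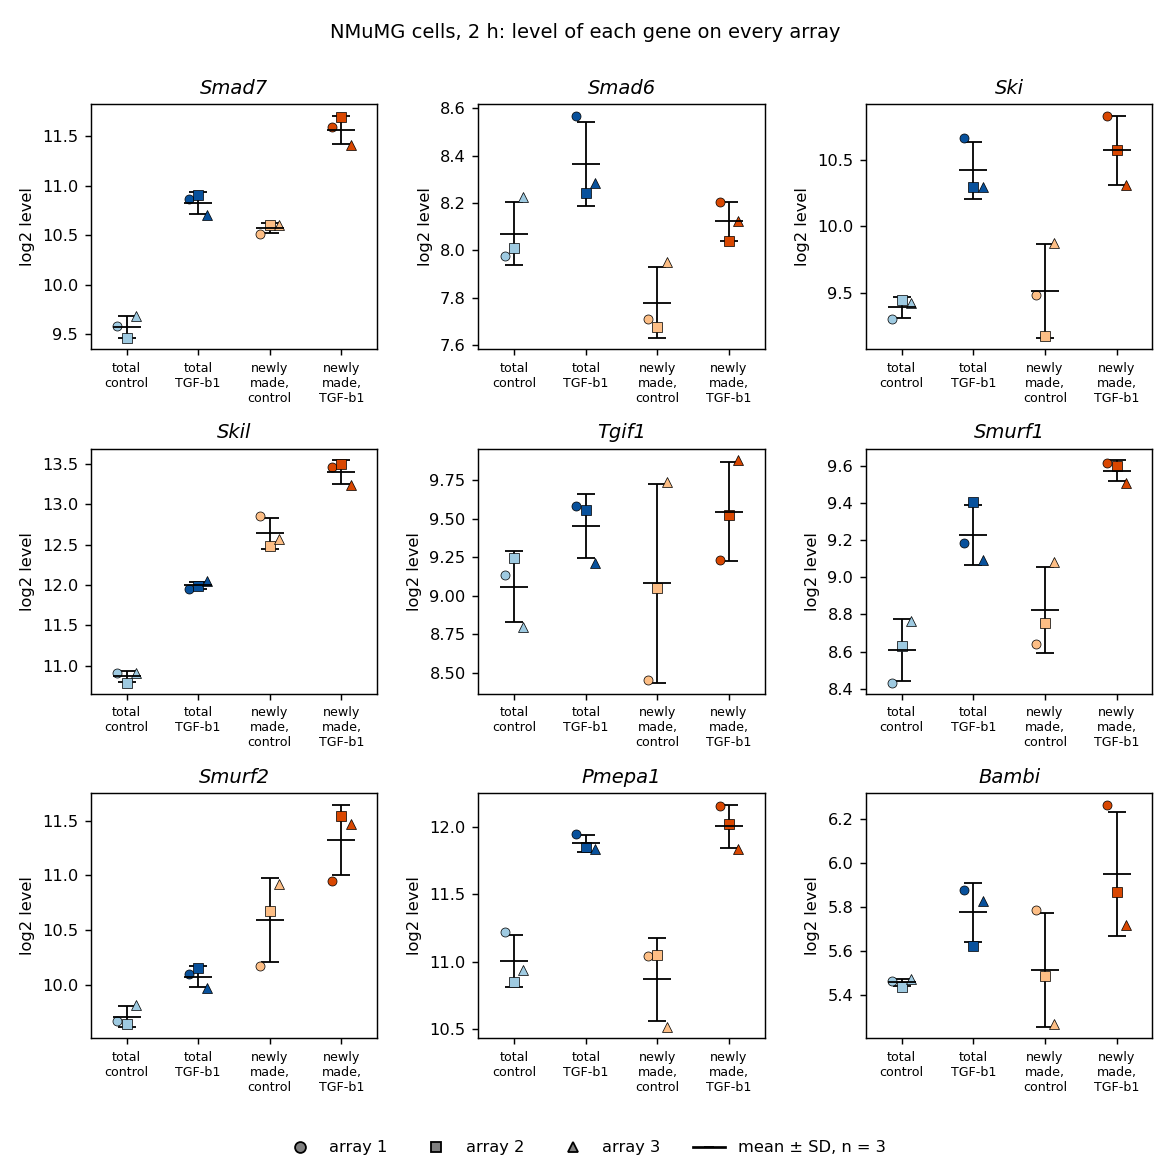
Levels (log2, y axes on separate scales that do not start at 0) of the 9 genes on each of the 12 NMuMG arrays in 4 groups; points are arrays with a symbol per replicate number, and black bars give mean ± SD (n = 3). In Smad7, Ski, Skil, Smurf1 and Pmepa1 all 3 TGF-b1 arrays lie above all 3 control arrays in both newly made and total RNA, and those 5 genes were called in both. The same separation holds for Smad6, which was called in neither, and for Smurf2, which was called in newly made RNA only. How many of all genes separate in this way was not counted.

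Total RNA of the same treatments showed what had reached the whole RNA pool by 2 h. Smad7, Skil, Ski, Pmepa1 and Smurf1 rose, by 0.62 to 1.25 log2 units, so that 5 of 9 genes were called higher and 0 lower, where 1.46% of all genes were called higher and 1.02% lower. The median change was 0.62 over the 9 genes and -0.03 over all genes. Smurf2, called in newly made RNA, was not called here.

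Smad7 stood at 9.58, 9.46 and 9.68 in control and at 10.86, 10.91 and 10.70 in TGF-b1 total RNA. It had the largest rise of the 9 genes in this RNA, 1.25 ± 0.11 (2.38-fold, adjusted p = 7.35e-06). Skil went from 10.91, 10.79 and 10.91 to 11.96, 11.99 and 12.05, the tightest of these groups, and rose by 1.13 ± 0.12 (2.18-fold, adjusted p = 3.45e-05). Ski went from 9.30, 9.44 and 9.43 to 10.67, 10.30 and 10.30, a rise of 1.03 ± 0.17 (adjusted p = 0.00211). None of these 3 genes had control and TGF-b1 arrays that overlapped. Pmepa1 went from 11.22, 10.85 and 10.94 to 11.95, 11.85 and 11.83, a rise of 0.87 ± 0.15 (adjusted p = 0.00280). Smurf1 went from 8.43, 8.63 and 8.77 to 9.18, 9.41 and 9.09, a rise of 0.62 ± 0.14 (adjusted p = 0.0179). Both were without overlap. The Smurf1 call was lost without control array 1 (adjusted p = 0.117) or 2 (0.0641) or TGF-b1 array 1 (0.0611) or 2 (0.133) of total RNA. The dimmer Smurf1 probe set gave 0.31 ± 0.12 and was not called (adjusted p = 0.365 over all probe sets).

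The remaining 4 genes differed by less. Smurf2 stood at 9.67, 9.64 and 9.82 in control and 10.10, 10.15 and 9.97 in TGF-b1 total RNA, 0.37 ± 0.18 apart (adjusted p = 0.559). Tgif1 differed by 0.39 ± 0.25 (adjusted p = 0.740), with groups of 8.80 to 9.24 and 9.22 to 9.59 that overlapped slightly. Bambi differed by 0.32 ± 0.15 (adjusted p = 0.538) and Smad6 by 0.29 ± 0.13 (adjusted p = 0.418). The groups of Smurf2, Bambi and Smad6 did not overlap, which is no test and has no share over all genes beside it. By limma none of the 4 genes was called, where 1.46% of all genes were called higher.

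Whether TGF-b1 changed a gene by a different amount in newly made and in total RNA was tested as an interaction. In limma, 0 of the 9 genes were called, and 0 had an unadjusted p under 0.05; over all genes 0.011% were called with the larger change upwards in newly made RNA and 0.055% downwards. With the replicate block, 0 of 9 were called as well. Skil came closest: its change was 0.36 ± 0.17 smaller in newly made than in total RNA (95% confidence interval -0.73 to 0.0016, unadjusted p = 0.0509), although its second probe set gave a difference of 0.09 ± 0.21. For Smad7 the difference was -0.26 ± 0.16 (interval -0.60 to 0.08). For Smurf2, which passed the test in newly made RNA only, it was 0.37 ± 0.25 (interval -0.17 to 0.91). Its other probe sets gave 0.30 ± 0.17 and 0.38 ± 0.17, in the same direction, and neither was called over all probe sets. A difference between the kinds of RNA was thus not shown for Smurf2. The differences of Pmepa1 (0.26), Smurf1 (0.13), Bambi (0.12), Tgif1 (0.07), Smad6 (0.05) and Ski (0.03) had intervals that included 0.

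**Figure D2:**
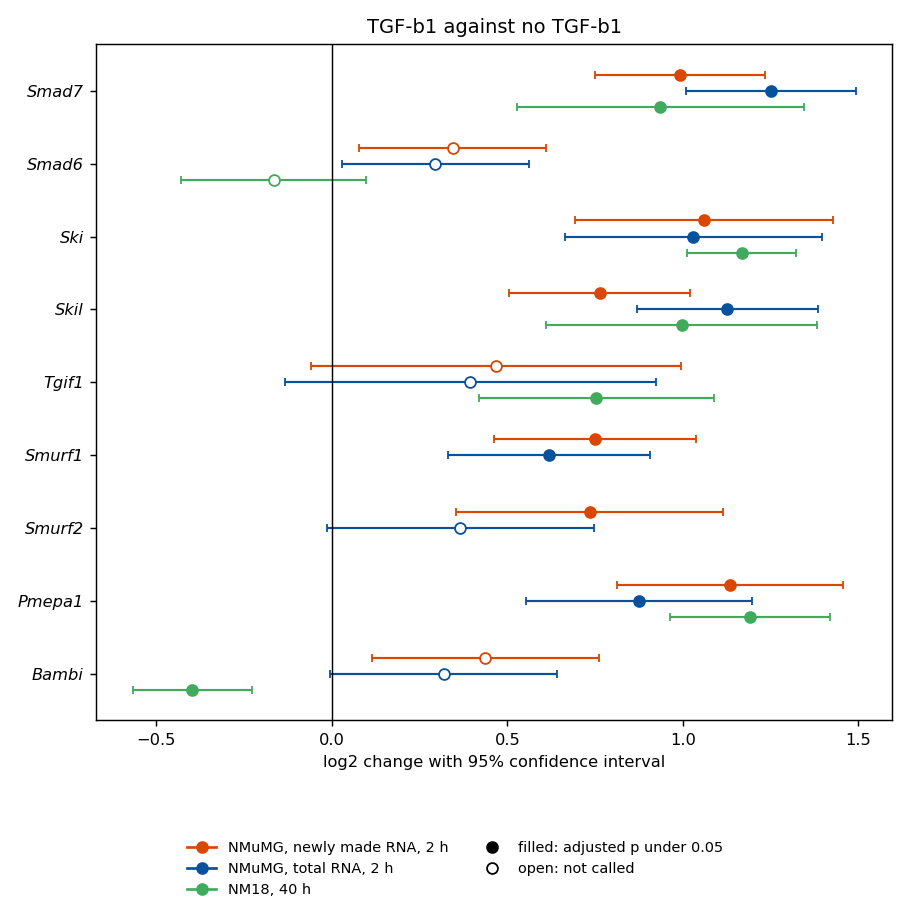
Log2 change with TGF-b1 (x axis) with its 95% confidence interval from limma for each gene, in newly made and total RNA of NMuMG cells at 2 h and in NM18 cells at 40 h; filled points are called at adjusted p under 0.05, and Smurf1 and Smurf2 have no NM18 value. Smad7, Ski, Skil and Pmepa1 are filled and above 0 in all 3 comparisons, and Bambi is filled and below 0 in NM18 cells.

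Newly made and total RNA were compared within each treatment, which shows the transcripts that are over-represented in RNA of the last 2 h. Skil, Smad7 and Smurf2 were higher in newly made RNA of control cells, so that 3 of 9 genes were called higher and 0 lower, against 17.2% of all genes higher and 26.8% lower. With TGF-b1, 4 of 9 were called higher and 0 lower, against 18.3% higher and 26.8% lower. These directions depend on the scaling for some genes: newly made arrays had higher medians (5.96 and 5.94) than total arrays (5.72 in both), and centring each array on its median moved the median difference of all genes in control cells from -0.08 to -0.33 and the share of calls that were higher from 39.1% to 19.5%.

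Skil had the largest difference. It was 1.77 ± 0.12 higher in newly made than in total RNA of control cells (3.41-fold, adjusted p = 9.50e-09) and 1.41 ± 0.12 higher with TGF-b1 (adjusted p = 7.69e-08). All 3 newly made arrays lay above all 3 total arrays in both treatments. Its dimmer probe set gave only 0.09 ± 0.15 in control cells and 0.18 ± 0.15 with TGF-b1, neither called. The probe sets of Skil thus disagree here, while both rose with TGF-b1 in newly made and in total RNA. Smad7 was 1.00 ± 0.11 higher in control cells (adjusted p = 1.77e-06) and 0.74 ± 0.11 higher with TGF-b1 (adjusted p = 4.11e-05), and its second probe set gave 0.90 ± 0.13 and 0.69 ± 0.13. Its group means lay in the order control total (9.57), control newly made (10.57), TGF-b1 total (10.82) and TGF-b1 newly made (11.57), and no neighbouring groups overlapped. Smurf2 was 0.88 ± 0.18 higher in control cells (adjusted p = 0.000637) and 1.25 ± 0.18 higher with TGF-b1 (adjusted p = 1.97e-05), and its other probe sets were also called, at 1.26 ± 0.12 and 0.54 ± 0.12 in control cells. Beside these, 5 of 9 epithelial markers were called lower in newly made RNA in either treatment, and the part of this in the differences was not tested. The calls of Skil, Smad7 and Smurf2 held with median centring and with quantile normalization.

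The other 6 genes were closer to equal, and all of them but Smad6 changed sign under at least 1 scaling or choice of probe set. Smurf1 was 0.34 ± 0.14 higher with TGF-b1 (adjusted p = 0.0489), a call that was lost with median centring (adjusted p = 0.462) and without newly made array 1 (0.106), 2 (0.111) or 3 (0.0690) or total array 1 (0.124) or 3 (0.174) of the TGF-b1 groups. Its dimmer probe set was lower in newly made RNA, by 0.63 ± 0.12 in control cells (adjusted p = 0.000240 over all probe sets), so the probe sets point opposite ways. Smad6 gave -0.29 ± 0.13 in control cells (adjusted p = 0.0726), and was called lower with median centring, at -0.54 (adjusted p = 0.00246), with quantile normalization (0.00672) and without control newly made array 3 (0.0337). With TGF-b1 it gave -0.24 ± 0.13, not called as deposited, and was called lower with median centring (-0.47, adjusted p = 0.00627) and quantile normalization (-0.32, 0.0258). Pmepa1 gave -0.13 ± 0.15 in control cells, and was called lower with median centring, at -0.38 (adjusted p = 0.0377). With TGF-b1 Pmepa1 gave 0.13 ± 0.15 and was called in the opposite direction, higher, with quantile normalization (0.42, adjusted p = 0.0466). Ski (0.12 ± 0.17), Bambi (0.06 ± 0.15) and Tgif1 (0.02 ± 0.25) were not called in control cells, and all 3 changed sign with median centring.

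**Figure D3:**
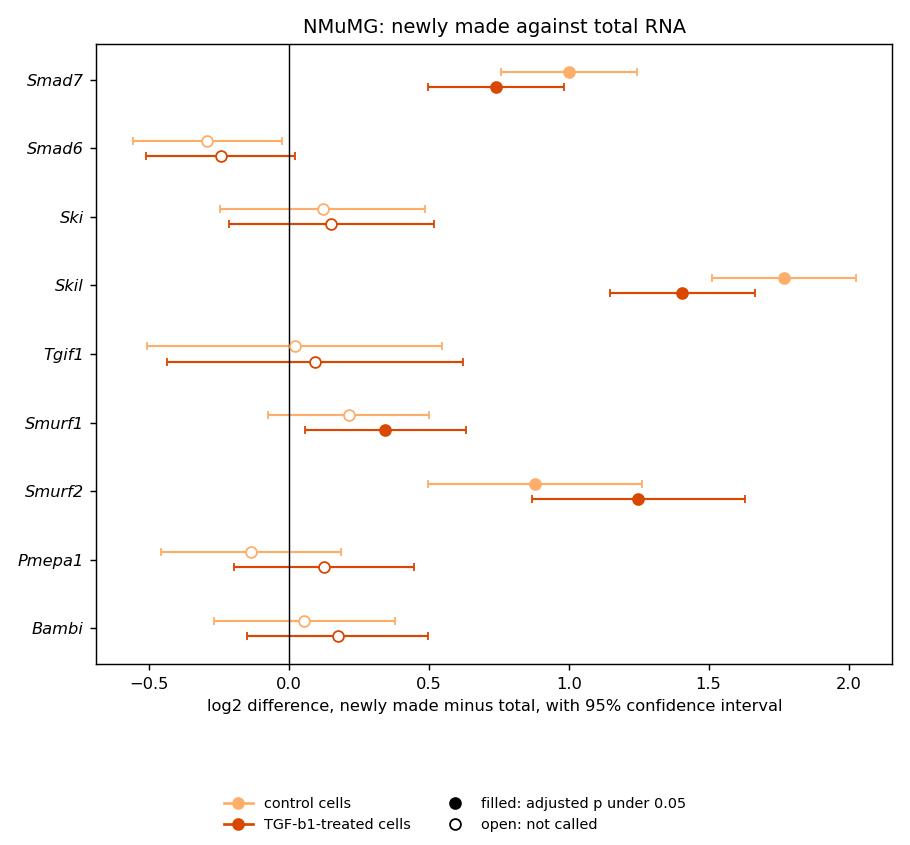
Log2 difference between newly made and total RNA (x axis, newly made minus total) with its 95% confidence interval from limma for the 9 genes in control and TGF-b1-treated NMuMG cells; filled points are called at adjusted p under 0.05. Skil, Smad7 and Smurf2 lie to the right in both treatments, from 0.74 to 1.77, and the other genes lie near 0, where the side depends on the scaling or probe set for all but Smad6.

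In NM18 cells the comparison of ns siRNA with and without TGF-b1 asked how these genes stood after 40 h of TGF-b1. Pmepa1, Ski, Skil, Smad7 and Tgif1 were higher, by 0.75 to 1.19 log2 units, Bambi was lower, and Smad6 did not pass the test. Of 7 genes 5 were called higher and 1 lower, where 13.2% of all genes were called higher and 17.5% lower; the median change was 0.94 over the 7 genes and 0.00490 over all genes. Without array 1 of ns siRNA without TGF-b1, the array with the divergent remark, 5 genes were again called higher and 1 lower. Markers of other cell types also moved: 2 of 6 leukocyte, 1 of 8 fibroblast and 1 of 5 basal or myoepithelial markers were called higher, all below the median gene, and of 9 epithelial markers 1 was higher and 2 lower. Their part in the result was not tested.

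Smad7 stood at 8.70, 9.14 and 9.34 without TGF-b1 and at 10.01, 9.73 and 10.27 with it, without overlap, a rise of 0.94 ± 0.19 (1.91-fold, adjusted p = 0.00259). Its smallest value without TGF-b1 was array 1; the rise without that array was 0.76 (adjusted p = 0.0104). Smad6 stood at 9.10, 9.36 and 9.29 without and at 8.98, 9.02 and 9.25 with TGF-b1, groups that overlapped, and its difference of -0.17 ± 0.12 was not called (adjusted p = 0.371).

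Ski had the smallest error of the 7 genes: it went from 8.42, 8.55 and 8.38 to 9.59, 9.59 and 9.67, a rise of 1.17 ± 0.07 (2.25-fold, adjusted p = 2.21e-06). The NM18 table measured Ski with another probe set than the one that stands for it in NMuMG cells; in NMuMG cells that probe set rose by 1.30 in newly made and 1.32 in total RNA. Skil went from 10.52, 11.34 and 10.77 to 11.75, 12.02 and 11.85, a rise of 1.00 ± 0.18 (adjusted p = 0.00122) between groups that did not overlap, and its dimmer probe set rose by 0.56 ± 0.11. Tgif1, which was not called at 2 h, went from 9.89, 9.89 and 10.27 to 10.83, 10.54 and 10.95, without overlap, and rose by 0.75 ± 0.15 (1.69-fold, adjusted p = 0.00283). The cells, time, table, siRNA and thiouridine treatment differ between the Tgif1 values of NMuMG and NM18 cells. The difference between these values was not tested.

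Pmepa1 went from 10.87, 10.96 and 10.57 to 11.99, 11.94 and 12.05, a rise of 1.19 ± 0.10 (2.28-fold, adjusted p = 1.23e-05), and its other probe sets rose by 1.5 ± 0.10 and 1.45 ± 0.07. The 3 arrays with TGF-b1 lay within 0.11 of each other and far above those without. Bambi, the receptor decoy, went the other way. It stood at 6.84, 6.97 and 6.92 without and at 6.60, 6.45 and 6.49 with TGF-b1, and fell by 0.40 ± 0.08 (adjusted p = 0.00229) between groups that did not overlap. All of these levels lay below the NM18 array medians of 7.37 to 7.39, which limits what they can show.

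The FoxQ1 siRNA comparison asked what differed with lowered Foxq1 in NM18 cells that had TGF-b1. Ski and Pmepa1 were higher with FoxQ1 siRNA, and Smad7, Skil, Tgif1, Bambi and Smad6 did not pass the test. Of 7 genes 2 were called higher and 0 lower, against 11.3% of all genes higher and 8.28% lower, and the median was 0.14 over the 7 genes and -0.00483 over all genes. In this comparison 3 of 9 epithelial and 2 of 6 leukocyte markers were called higher, the leukocyte markers all lying below the median gene; their part in the result was not tested. With the replicate block 4 members were called: Ski, Pmepa1 and Tgif1 higher and Smad6 lower.

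Ski stood at 10.31, 10.13 and 10.22 with FoxQ1 siRNA, against 9.59, 9.59 and 9.67 with ns siRNA, both with TGF-b1. The groups did not overlap, and the rise was 0.60 ± 0.07 (1.52-fold, adjusted p = 0.000154). Pmepa1 stood at 12.52, 12.24 and 12.41 against 11.99, 11.94 and 12.05, also without overlap, and rose by 0.40 ± 0.10 (1.32-fold, adjusted p = 0.0179). Its other probe sets rose by 0.61 ± 0.10 and 0.64 ± 0.07. The Pmepa1 call was lost without FoxQ1 siRNA array 1 (adjusted p = 0.0781) or 3 (0.0533) or without array 1 (0.0595) or 2 (0.0596) of ns siRNA with TGF-b1; 1 gene, Ski, then remained without FoxQ1 siRNA array 1 and without either of the ns siRNA arrays.

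Tgif1 stood at 11.21, 10.81 and 11.34 against 10.83, 10.54 and 10.95. The groups overlapped, but each FoxQ1 siRNA array lay above the ns siRNA array of its number, by 0.38, 0.27 and 0.39. The difference of 0.35 ± 0.15 was not called (adjusted p = 0.149), and was called with the replicate block (adjusted p = 0.00641). Without single arrays it ranged from 0.23 without array 2 of ns siRNA with TGF-b1 (adjusted p = 0.411) to 0.50 without FoxQ1 siRNA array 2, where it was called (0.0303). Smad6 stood at 8.74, 8.54 and 9.01 against 8.98, 9.02 and 9.25, lower in each pair by 0.23, 0.48 and 0.24. Its difference of -0.32 ± 0.12 was not called (adjusted p = 0.0936), and was called with the replicate block (adjusted p = 0.0283). Without single arrays it ranged from -0.44 without FoxQ1 siRNA array 3, where it was called (adjusted p = 0.0227), to -0.21 without FoxQ1 siRNA array 2 (0.278). For Smad7 the difference was -0.11 ± 0.19 (95% confidence interval -0.52 to 0.30), for Skil 0.05 ± 0.18 (interval -0.33 to 0.44) and for Bambi 0.14 ± 0.08 (interval -0.03 to 0.31), with adjusted p-values of 0.768, 0.888 and 0.269.

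**Figure D4:**
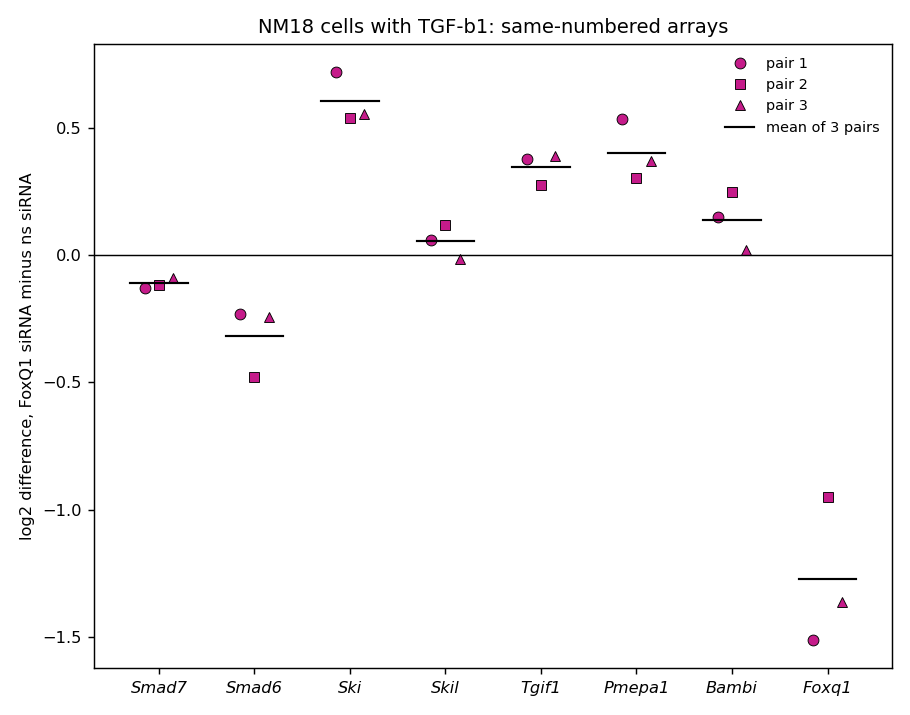
Log2 difference between FoxQ1 siRNA and ns siRNA in NM18 cells with TGF-b1 (y axis) for the 3 pairs of same-numbered arrays (symbols) and their mean (line), for the 7 genes and Foxq1. Ski, Tgif1, Pmepa1 and Bambi are above 0 and Smad6, Smad7 and Foxq1 below 0 in all 3 pairs, with Ski from 0.54 to 0.72.

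**Figure D5:**
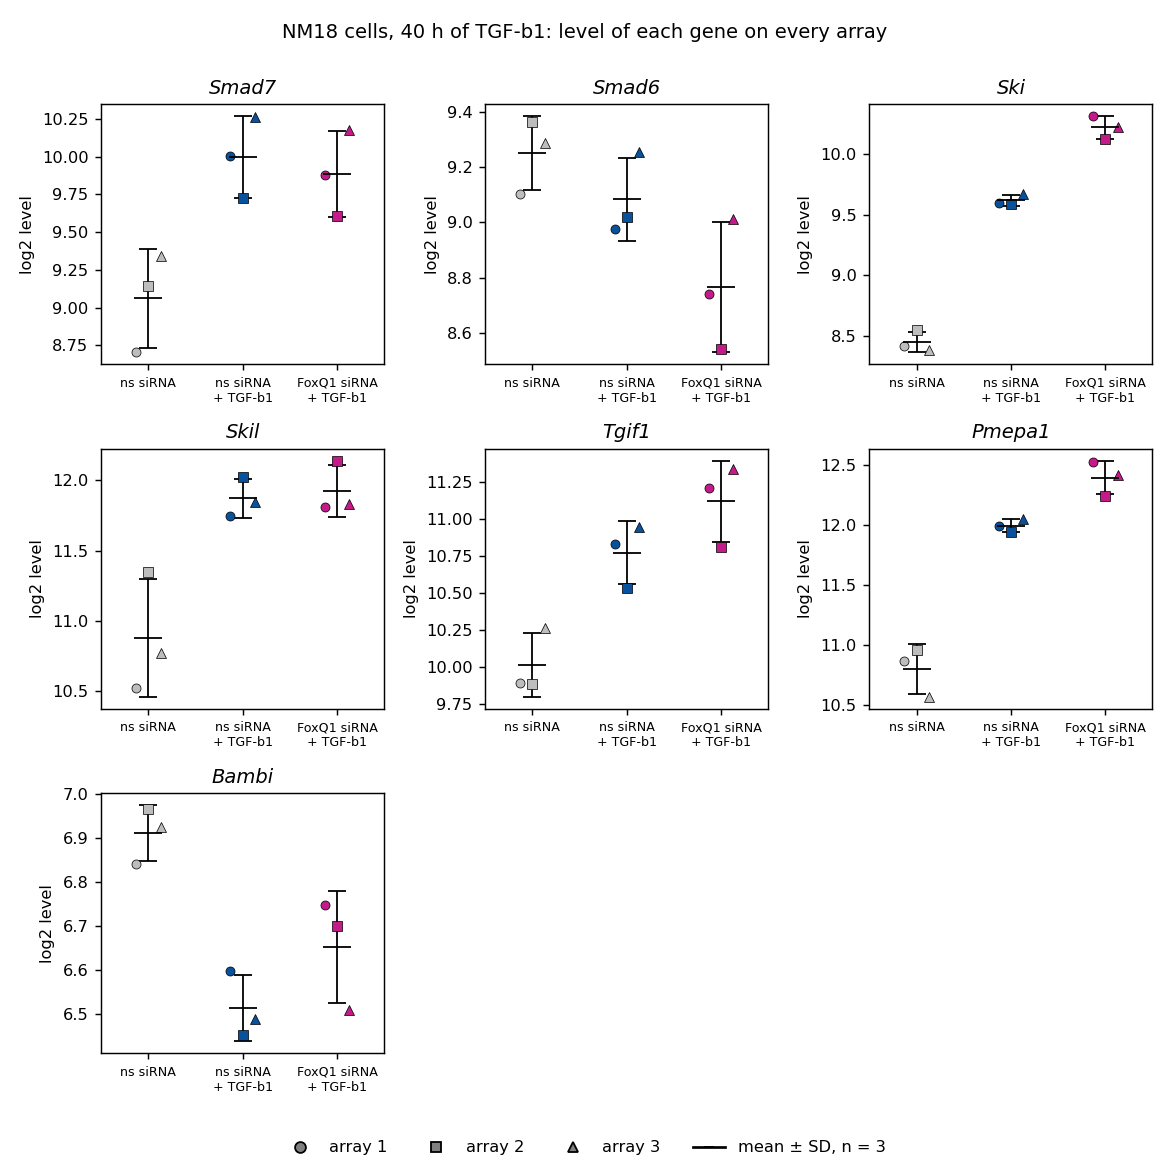
Levels (log2, y axes on separate scales that do not start at 0) of the 7 genes on each of the 9 NM18 arrays in 3 groups; points are arrays with a symbol per replicate number, and black bars give mean ± SD (n = 3). Ski and Pmepa1 form 3 separate steps, while Smad7, Smad6, Skil, Tgif1 and Bambi overlap between the 2 groups with TGF-b1.

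FoxQ1 siRNA with TGF-b1 was also set against ns siRNA without TGF-b1. This comparison shares its arrays with the 2 before it and mixes both treatments. All 7 genes were called, 5 higher and 2 lower, against 19.3% of all genes higher and 18.6% lower. Ski was 1.77 ± 0.07 higher (3.41-fold, adjusted p = 9.96e-09), Pmepa1 1.59 ± 0.10 and Tgif1 1.10 ± 0.15. Skil was 1.05 ± 0.18 higher and Smad7 0.82 ± 0.19. Smad6 fell by 0.48 ± 0.12 (adjusted p = 0.00730), from 9.25 ± 0.13 to 8.77 ± 0.23 without overlap. Bambi fell by 0.26 ± 0.08 (adjusted p = 0.0201), a call that was lost without ns siRNA array 2 (adjusted p = 0.0650) or 3 (0.0539) or FoxQ1 siRNA array 3 (0.0839).

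For the 6 genes called at 2 h, the genes with the most similar profile over the 12 NMuMG arrays were taken by the smallest root mean square (RMS) difference between profiles centred on their own means. Smad7 was nearest to Sertad4 (RMS difference 0.13 log2 units) and Spata13 (0.14), Skil to Sash1 (0.18) and Daam1 (0.21), and Ski to Gba2 (0.21) and Zdhhc18 (0.23). Smurf1 was nearest to Zmiz1 (0.12) and Fam110c (0.14), Smurf2 to Nin (0.08) and Ccbe1 (0.12), and Pmepa1 to Dpm3 (0.12) and Nudt18 (0.17). The RMS spread of the 6 genes about their own means was 0.39 to 0.93. The neighbours were chosen on the same arrays, so their TGF-b1 changes in newly made RNA are given as a description. They ran from 0.45 for Ccbe1, which was not called (adjusted p = 0.170), and 0.68 for Nin to 1.22 for Dpm3 and 1.27 for Spata13.

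The wider pathway was read through 8 lists of 94 further genes, 91 of them on the NMuMG and 87 on the NM18 arrays. These lists, too, were chosen with earlier results of these data known. TGF-b1 raised 15 and lowered 5 in newly made RNA, and raised 11 and lowered 4 in total RNA, with medians of 0.05 and 0.01. Over all genes 3.35% were called higher and 2.79% lower in newly made RNA, and 1.46% and 1.02% in total RNA; no test set a list against all genes. Of 12 receptor genes 3 rose in both: the BMP and activin receptor gene Acvr1 by 1.38 ± 0.16 in newly made and 1.38 ± 0.16 in total RNA, the BMP receptor gene Bmpr2 by 1.04 ± 0.15 and 0.81 ± 0.15, and the type I TGF-b receptor gene Tgfbr1 by 0.98 ± 0.16 and 1.25 ± 0.16. Of 6 signalling SMADs, Smad3 alone was called, at 0.43 ± 0.12 and 0.50 ± 0.12; its call in total RNA was lost with quantile normalization (adjusted p = 0.0803). Of 11 adaptors and membrane-level inhibitors, Ldlrad4, whose product like that of Pmepa1 holds back receptor SMADs, rose by 1.76 ± 0.17 and 1.41 ± 0.17, and the caveolin gene Cav1 fell by 0.87 ± 0.16 in newly made RNA. Of 9 extracellular antagonists, Fstl3, an activin trap, rose by 0.80 ± 0.14 and 0.79 ± 0.14.

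In newly made RNA, 4 of 14 ligand and latency genes were called higher and 2 lower, and in total RNA 0 higher and 2 lower. The limma interaction called 0 of the 14, and 4 had an unadjusted p under 0.05. Tgfb3, at 0.85 ± 0.26, and the latent TGF-b binding protein gene Ltbp2, at 0.47 ± 0.18, were not called in total RNA (adjusted p = 0.136 and 0.321). In newly made RNA Tgfb3 rose by 1.69 ± 0.26 and Ltbp2 by 1.40 ± 0.18. Bmp4 fell by 1.23 ± 0.12 and the activin subunit gene Inhbb by 1.26 ± 0.18. Of 12 measured corepressors and partners Ctbp2 alone rose, by 0.48 ± 0.12, and in total RNA none was called (2 had an unadjusted p under 0.05). None of 13 other ubiquitin ligases, deubiquitinases and phosphatases was called by limma in newly made RNA (3 at unadjusted p under 0.05) or total RNA (1). Quantile normalization called 1 of the 13 higher in newly made RNA. In the same RNA, 4 of 14 immediate target genes were higher and 2 lower (5 and 2 in total RNA), with the sphingosine kinase gene Sphk1 at 1.61 ± 0.16, Bhlhe40 at 1.51 ± 0.17 and the BMP targets Id3 and Id2 at -1.37 ± 0.16 and -0.63 ± 0.15.

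After 40 h in NM18 cells, 22 of 87 pathway genes were higher and 13 lower, with a median of 0.04, where 13.2% of all genes were higher and 17.5% lower. The same 3 receptor genes were higher, Acvr1 by 1.47 ± 0.10, Tgfbr1 by 1.07 ± 0.17 and Bmpr2 by 0.79 ± 0.09, and Ldlrad4 by 0.87 ± 0.13. The activin subunit gene Inhba was 2.13 ± 0.26 and the corepressor gene Zeb1 0.91 ± 0.12 higher. Among the ubiquitin genes, Nedd4l, whose product like the SMURFs targets receptor SMADs, fell by 0.73 ± 0.13. Of 13 immediate target genes 5 were higher and 4 lower: Sphk1 rose by 2.14 ± 0.18 and Jun by 1.22 ± 0.11, and Id2 fell by 2.57 ± 0.17 and Id1 by 1.77 ± 0.15. With FoxQ1 siRNA in the presence of TGF-b1, 14 were higher and 5 lower, where 11.3% of all genes were higher and 8.28% lower. The activin type I receptor gene Acvr1b was 1.04 ± 0.08 higher, Tgfbr1 0.70 ± 0.17, the follistatin gene Fst 0.75 ± 0.08 and Trim33, a ubiquitin ligase gene acting on SMAD4, 0.50 ± 0.06 higher. Zeb1 fell by 0.53 ± 0.12 and Inhbb by 0.93 ± 0.08.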

How the data were processed

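Probe set values of 12 NMuMG and 9 NM18 arrays were used as the authors deposited them, as log2 expression values; the log2 scale was inferred from their range (2.34 to 14.8 and 4.57 to 14.6). Background correction and normalization are not given in the sources used here; the submitters' processing notes list affy 1.18.2, with no step attached. Probe sets with 1 gene symbol were kept (34945 of 45101 and 20380 of 22690). limma 3.58.1 in R 4.3.3 (lmFit, eBayes) was fitted to all groups of a table together, with two-sided tests and Benjamini-Hochberg adjustment over all genes. The fit was tried on simulated data with changes of 1 unit and noise independent between arrays. That trial cannot show how the fit does where arrays deviate together or changes are smaller. The tables were not tested against each other. Replicates are described as biological, per the labels; they do not say if both kinds of RNA with 1 number share a culture.

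The members, the lists and the alternatives were chosen with earlier results of these data known. Named were all members, the nearest profiles, and per list and comparison up to 4 called genes. These were not always the genes with the smallest p: in newly made RNA Tgfb3 was named before Ltbp1, and Id2 before Jun. Same-numbered arrays deviated together in the TGF-b1 and siRNA comparisons (correlations 0.12 to 0.73 over genes), which was taken as pairing. It was not taken so in newly made against total RNA (0.01 to 0.31), although the ranges overlap. The main fit had no replicate block, so this pairing entered calls only in the alternatives with a block. Alternatives were median centring, quantile normalization, fitting only the groups compared, a replicate block, the mean of a gene's probe sets, genes above the median level, an intensity trend and leaving out each array; a block within each kind of RNA was chosen after seeing the data. Protein sequences were not used here.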

Additional observations from a re-analysis of the deposited data

Results flagged for a closer look

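For Bambi and Smad6, TGF-b1 went with opposite signs in NMuMG and NM18 cells. Every same-numbered pair of arrays was higher with TGF-b1 in NMuMG cells at 2 h, and every pair was lower in NM18 cells at 40 h. Bambi differed by 0.44 in newly made and 0.32 in total RNA of NMuMG cells, neither of which was called, and by -0.40 in NM18 cells, which was called. Smad6 differed by 0.34 and 0.29 in NMuMG cells and by -0.17 in NM18 cells, none of which was called. The difference between NMuMG and NM18 cells was not tested. All NM18 arrays and no NMuMG arrays had siRNA, and all NMuMG arrays and no NM18 arrays had thiouridine. These treatments, the cells, time, labelling kit and table differ together and cannot be told apart.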

How the results depend on the processing

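Of 922 values of the 9 genes under alternatives, 843 kept their direction and side of the threshold, 18 gained the call, 23 lost it and 38, none of them called, changed sign; the cause was not tested. In newly made against total RNA of control cells, median centring gave -0.19 for Bambi, -0.12 for Ski, -0.031 for Smurf1 and -0.22 for Tgif1, quantile normalization -0.12 for Bambi and 0.0032 for Pmepa1, and the mean of probe sets -0.21 for Smurf1. With TGF-b1, median centring gave -0.051 for Bambi, -0.10 for Pmepa1, -0.074 for Ski and -0.13 for Tgif1, quantile normalization -0.056 for Bambi, and the mean of probe sets -0.13 for Smurf1. The mean of probe sets gave -0.051 for Skil with FoxQ1 siRNA. Leaving out single arrays gave ranges that crossed 0: in the interaction -0.24 to 0.40 for Tgif1, -0.14 to 0.21 for Ski, -0.027 to 0.15 for Smad6 and -0.038 to 0.25 for Bambi; in newly made against total RNA of control cells -0.080 to 0.18 for Bambi, -0.22 to 0.043 for Pmepa1, -0.060 to 0.29 for Ski and -0.31 to 0.34 for Tgif1, and with TGF-b1 -0.074 to 0.25 for Tgif1; with FoxQ1 siRNA -0.053 to 0.13 for Skil and -0.26 to 0.028 for Smad7. Over all genes, the 1116 calls in newly made RNA became 680 with only the groups compared and 2320 with the block within each kind of RNA. The 452 calls in total RNA became 701 with the replicate block and 1025 with the block within each kind of RNA. The 12 interaction calls became 19 with quantile normalization, 39 with the replicate block, 86 with the block within each kind of RNA and 4 to 20 without single arrays. Of the 9 genes, 5 in place of 3 were called in newly made against total RNA of control cells with median centring. With FoxQ1 siRNA 4 in place of 2 were called with the replicate block, and 1 to 3 without single arrays. The replicate block changed no other call of these genes than those of Bambi in newly made RNA and of Tgif1 and Smad6 with FoxQ1 siRNA. Bambi lay near the array medians in NMuMG cells and below them in NM18 cells, which limits what its values can show.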

Other observations

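In newly made against total RNA of control NMuMG cells, 6 of 12 receptor genes were called higher under each of the 3 scalings, and 1 or 2 lower, where 17.2% of all genes were higher and 26.8% lower as deposited. The activin receptor gene Acvr2a was 1.77 higher (limma adjusted p = 4.66e-08), Tgfbr1 1.61 (4.92e-07), the BMP receptor gene Bmpr1a 1.55 (5.05e-06) and Bmpr2 1.48 (4.23e-07); with median centring they were 1.53, 1.37, 1.30 and 1.23 higher. Of 13 ubiquitin ligases, deubiquitinases and phosphatases, 5 were higher and 5 lower as deposited, and 3 higher and 8 lower with median centring, under which 2248 of all 18193 genes were higher and 9297 lower. Of 14 immediate target genes, 6 were higher and 2 lower as deposited, and 4 higher and 5 lower with median centring.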
